A study of Mus musculus with 81 samples.

Results

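The genes described here are 32 genes of glycolysis and of the transcriptional response to low oxygen, chosen by symbol from what they are known to do and taken from the 54079 genes listed in every count file of the study. They comprise 2 glucose transporters (Slc2a1, Slc2a3), 9 genes of upper glycolysis (Hk1, Hk2, Hk3, Gpi1, Pfkl, Pfkm, Pfkp, Aldoa, Aldoc), 2 genes of the regulatory enzyme PFK-2 (Pfkfb3, Pfkfb4), 7 genes of lower glycolysis (Tpi1, Gapdh, Pgk1, Pgam1, Eno1, Eno2, Pkm), 5 genes that decide the fate of pyruvate and lactate (Ldha, Ldhb, Slc16a1, Slc16a3, Pdk1), Hif1a with the 2 oxygen-sensing hydroxylases Egln1 and Egln3, and 4 further targets of hypoxia-inducible factor (Vegfa, Bnip3, Ndrg1, Ankrd37). They were measured by RNA-seq in 81 libraries of mouse macrophages and their progenitors, with and without the histone variant H3.3.

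H3.3 is a replacement histone made from H3f3a and H3f3b, and the study asked what its loss does to developing and mature myeloid cells. WT mice carried floxed copies of both genes (H3f3a fl/fl H3f3b fl/fl) without Cre, and H3.3cKO mice (cKO) carried the same alleles with LysM cre/cre, all on a C57BL/6 background, as young adults of both sexes. LysM-Cre sits in both copies of Lyz2 and acts in macrophages and granulocytes, so cKO cells also lack Lyz2 and the WT cells do not carry Cre. Bone marrow-derived macrophages (BMDM) were grown from marrow in L929-conditioned medium, a source of M-CSF, for 3, 5 or 7 days with 3 WT and 3 cKO libraries a day. The labels name the cells of days 3 and 5 BMDM progenitors and those of day 7 BMDM.

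Day 8 BMDM were left untreated or given IFNγ for 12 h, with 3 WT and 2 cKO libraries a condition. Peritoneal macrophages gave 3 WT and 3 cKO libraries. BMDM were also cultured without antibody, with a control antibody or with an antibody against the type I interferon receptor IFNAR1, in 3 WT and 3 cKO libraries each. A last experiment held 3 sets of 3 WT and 3 cKO libraries, here set 1, set 2 and set 3, and 3 libraries each of H3.3cKO:StingKO, H3.3cKO:MavsKO and H3.3cKO:Irf7KO, in which the cKO alleles were combined with loss of a DNA sensing adaptor, an RNA sensing adaptor or an interferon transcription factor. The labels do not tie a set to a double KO.

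Glycolysis splits glucose into pyruvate, and macrophages use it as a fast source of energy and of building blocks, more so when they are activated. The transcription factor HIF-1 raises nearly every step of it when oxygen is low: its alpha subunit, made from Hif1a, is continuously destroyed after prolyl hydroxylases of the Egln family mark it, and is spared when these enzymes lack oxygen. Egln3, Bnip3, Ankrd37, Vegfa and Pdk1 are known targets. RNA-seq measured neither HIF protein nor its activity, so changes in their mRNA are not read here as changes in HIF.

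HIF binds a short element with the core ACGTG or GCGTG. The core was searched on both strands (reverse complements CACGT and CACGC, cores that overlap counted as 1 place) in the 250 bases before the start of each gene in RefSeq promoters of the mouse build GRCm38.p6, where 30 of the 32 genes had an entry (all but Slc2a3 and Ndrg1). For each of the 30 the first listed promoter was used. The core was present in 23 of the 30 (76.7%), against 12679 of all 32851 promoters (38.6%) and 10431 of 27025 first listed promoters (38.6%). It was found in 2 or more places in 13 of the 30 (43.3%), against 13.4% of all promoters. The 5 promoters below, each 5′ to 3′ on the strand of the gene with the core in capitals, belong to 5 of the genes called lower in cKO cells in all 3 sets and were picked after those values were seen. Of the other genes called lower in all 3 sets, Pfkfb4, Pgk1, Pgam1 and Slc16a3 held 1 to 3 places, and Gpi1 and Aldoa held 0. A match is a description of the letters, not of binding.

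Ldhb: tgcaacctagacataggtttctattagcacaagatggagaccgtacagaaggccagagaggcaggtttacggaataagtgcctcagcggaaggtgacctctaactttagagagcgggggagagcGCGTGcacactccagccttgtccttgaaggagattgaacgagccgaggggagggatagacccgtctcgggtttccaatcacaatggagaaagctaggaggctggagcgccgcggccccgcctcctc
Pdk1: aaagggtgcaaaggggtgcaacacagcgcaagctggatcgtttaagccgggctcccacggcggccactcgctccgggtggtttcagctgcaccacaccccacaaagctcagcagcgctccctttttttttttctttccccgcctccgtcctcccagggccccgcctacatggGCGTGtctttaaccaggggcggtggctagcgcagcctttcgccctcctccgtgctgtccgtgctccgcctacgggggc
Egln3: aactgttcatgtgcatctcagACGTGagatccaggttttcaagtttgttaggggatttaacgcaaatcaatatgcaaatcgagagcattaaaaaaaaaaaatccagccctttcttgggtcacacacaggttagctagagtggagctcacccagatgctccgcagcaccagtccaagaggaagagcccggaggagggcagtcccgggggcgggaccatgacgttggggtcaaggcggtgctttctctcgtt
Bnip3: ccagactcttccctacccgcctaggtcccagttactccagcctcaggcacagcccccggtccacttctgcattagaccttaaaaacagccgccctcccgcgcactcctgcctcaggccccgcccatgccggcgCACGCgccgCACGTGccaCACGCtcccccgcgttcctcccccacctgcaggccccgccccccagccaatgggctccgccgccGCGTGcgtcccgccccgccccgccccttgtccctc
Ankrd37: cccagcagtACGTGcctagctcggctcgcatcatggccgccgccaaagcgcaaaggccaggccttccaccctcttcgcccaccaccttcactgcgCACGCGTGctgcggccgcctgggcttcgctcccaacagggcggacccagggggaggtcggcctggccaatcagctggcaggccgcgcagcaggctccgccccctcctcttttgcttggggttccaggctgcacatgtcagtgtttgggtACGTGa

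These stretches lie at chr6:142507958-142508207 on the minus strand (Ldhb), chr2:71872974-71873223 on the plus strand (Pdk1), chr12:54203875-54204124 on the minus strand (Egln3), chr7:138909507-138909756 on the minus strand (Bnip3) and chr8:45999851-46000100 on the minus strand (Ankrd37). The Ldhb, Pdk1 and Egln3 stretches hold 1 place with the core each, the Ankrd37 stretch 3 and the Bnip3 stretch 4.

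Counts that fell in genes ranged from 3614967 to 45581528 a library, with a median of 18333377. In cKO libraries H3f3a stood at 6.95 to 27.3% of its WT level and Lyz2 at no more than 0.271%, while H3f3b stood at 75.0 to 89.5% in all but the antibody experiment, where it was 11.5 to 13.3%. Tmem173, the gene of STING, was at 7.01% of its cKO level in H3.3cKO:StingKO and Irf7 at 30.1% in H3.3cKO:Irf7KO, whereas Mavs mRNA in H3.3cKO:MavsKO was at 82.9% (37.5 against 45.3 CPM, counts scaled to library size by TMM). The study reported the Mavs deletion by genomic PCR, qRT-PCR and RNA-seq tracks of the deleted exons, and a count over the whole gene does not resolve exons. It also reported loss of H3.3 protein in day 7 BMDM, and H3f3b deletion that was complete in some cKO samples and partial in others. Macrophage markers were high in every library and the 3 defining genes of peritoneal macrophages summed to 6095.5 to 7171.7 CPM in the peritoneal libraries against at most 25.2 in the cultures. The shallowest library, day 8 cKO with IFNγ replicate 1, also had 57.06% unmapped reads, against 12.57 to 18.35% in the rest of that experiment, and is named wherever a result rests on it.

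Levels per length (RPKM) were compared between the genes in WT day 7 BMDM. Aldoa, the main aldolase, stood first at 376 ± 213 RPKM (SD, n = 3), followed by Pkm, which makes the last enzyme of the pathway, at 321 ± 221, Ldha at 198 ± 149 and Gapdh at 194 ± 97.7. These 4 genes were measured in the same 3 libraries, so the SD between libraries does not measure how the genes differ, which was not tested. Of the 50-base windows of their transcripts 25.8% (Pkm), 25.1% (Gapdh), 9.26% (Ldha) and 6.43% (Aldoa) are also found in other genes. Eno2, the minor enolase, was lowest at 0.99 RPKM and Ankrd37 next at 1.66 RPKM. In WT peritoneal macrophages Ldha led at 356 RPKM, ahead of Gapdh at 231 and Aldoa at 192.

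The comparison of cKO with WT could be made 12 times, and the changes of the 32 genes differed widely between them. A gene is called changed where edgeR's quasi-likelihood test with Benjamini-Hochberg adjustment over all genes tested in that experiment gave an adjusted p under 0.05. By that rule 30 of the 32 genes were called in at least 1 of the 12 comparisons, and Eno1 and Egln1 in none. The same share over all genes was not counted, so the 30 cannot be read as particular to these genes. In single comparisons between 0.612% (day 8 untreated) and 34.9% (set 3) of all genes tested were called. Ldhb was called lower 9 times, Slc2a3 higher 8 times and Pfkfb4 lower 5 times, while Hif1a and Ndrg1 were called in both directions. In these bulk libraries fewer cells of a type and less RNA per cell cannot be told apart. The labels call the libraries of a group biological replicates without saying what was repeated for each, so the p-values measure the spread between these libraries.

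**Figure D1:**
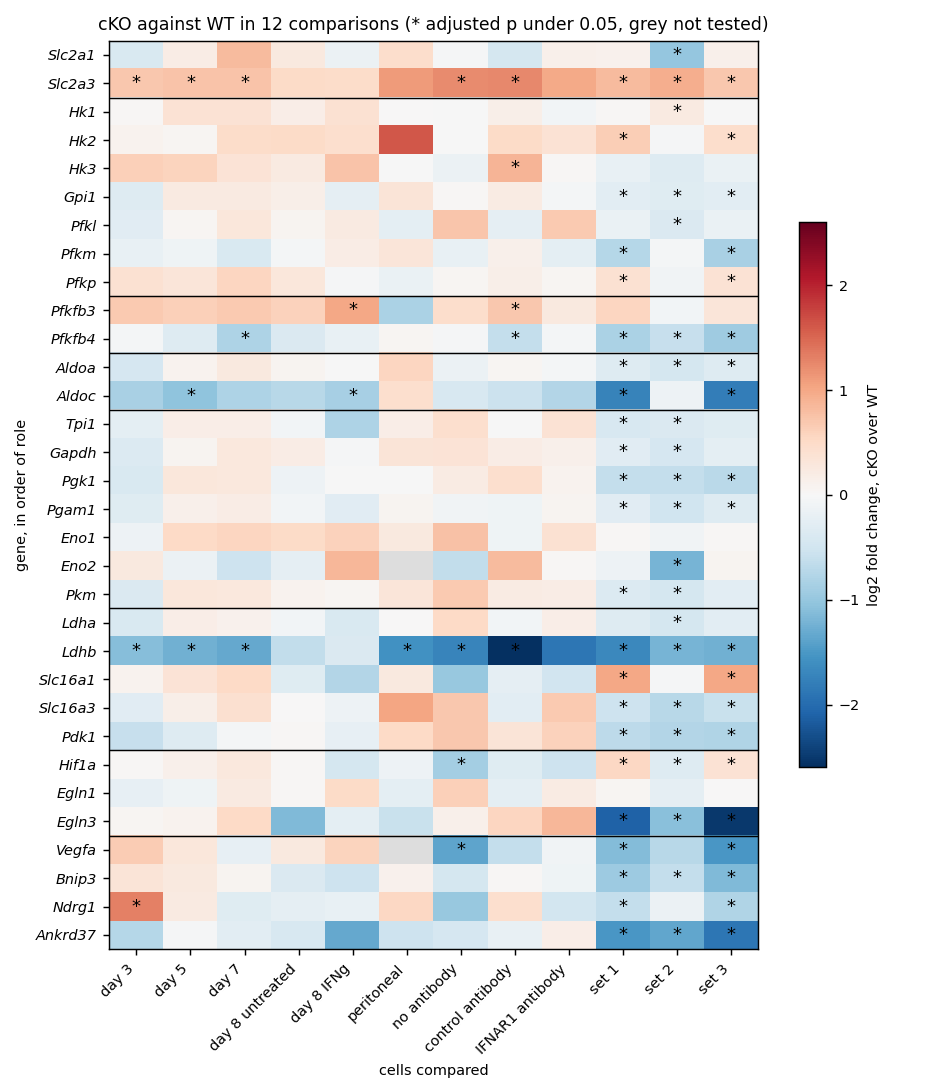
Log2 fold change of cKO against WT for each of the 32 genes (rows, by role) in the 12 comparisons (columns), with an asterisk where the adjusted p was under 0.05 and grey where the gene was not tested. Ldhb is below 0 in all 12 columns and Slc2a3 above 0 in all 12, and the asterisks of the other genes are mostly in the columns of the 3 sets.

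Ldhb, the lactate dehydrogenase subunit that favours the conversion of lactate to pyruvate, and Slc2a3, a glucose transporter of high affinity, had log2 fold changes of 1 sign in all 12 comparisons. For Slc2a3 at day 8 with IFNγ that sign rested on the shallow cKO replicate 1 (7.94 CPM, against 2.62 CPM in replicate 2 and 1.51 to 4.34 CPM in WT), since 0.47 ± 0.50 with both became -0.14 without it. Both were singled out after their values were seen. Both were scarce per length in WT day 7 BMDM, Slc2a3 at 2.94 and Ldhb at 2.13 RPKM, ranks 28 and 30 of the 32. At day 3 Ldhb stood at 4.57, 6.63 and 5.56 CPM in the WT libraries and at 3.58, 2.05 and 2.20 CPM in the cKO libraries. At day 5 the WT values were 4.24, 4.97 and 4.80 CPM and the cKO values 1.36, 2.26 and 2.24 CPM. At day 7 they were 2.61, 4.48 and 2.95 CPM against 1.41, 1.52 and 1.05 CPM. The WT and cKO libraries did not overlap on any of the 3 days, and the log2 fold change was -1.10 ± 0.28 (SE) at day 3, -1.25 ± 0.28 at day 5 and -1.32 ± 0.29 at day 7 (adjusted p = 0.0224, 0.025 and 0.0363).

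The WT peritoneal libraries held 25.96, 23.6 and 28.0 CPM of Ldhb and the cKO libraries 10.7, 5.17 and 10.4 CPM, with no overlap and a log2 fold change of -1.57 ± 0.28 (adjusted p = 0.0466). With the control antibody the WT libraries held 12.5, 11.1 and 11.8 CPM and the cKO libraries 1.55, 4.34 and 0.622 CPM (log2 fold change -2.59 ± 0.47, adjusted p = 0.00432). This was the lowest fold of the 12. Without antibody the change was -1.72 ± 0.45 (adjusted p = 0.0299), and with the IFNAR1 antibody the groups did not overlap either but the call was missed (-1.88 ± 0.45, adjusted p = 0.0746).

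In the sets Ldhb fell by 1.68, 1.22 and 1.25 on the log2 scale (sets 1, 2 and 3). At day 8 between 1 and 36 reads of Ldhb a library were counted, and the log2 fold changes of -0.64 ± 0.49 untreated and -0.38 ± 0.64 with IFNγ were not called. The 50-base windows of the Ldhb transcripts are shared with another gene, Gm5514, for 21% of their number, so part of its reads may have been set aside or assigned there. The peritoneal call was lost when any 1 of the 6 libraries was left out. The day 3 call was lost without WT replicate 2 or 3 or cKO replicate 2 or 3, the day 5 call without WT replicate 2 or 3 or cKO replicate 1, the day 7 call without WT replicate 2 or any cKO replicate, and the call of the cultures with no antibody when any library but WT replicate 1 was left out. The call with the control antibody and those in the 3 sets held in each such fit.

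Slc2a3 (chr6:122727809-122801640 in mm10, minus strand) was higher in cKO cells. At day 3 the WT libraries held 29.5, 34.5 and 37.7 CPM and the cKO libraries 60.7, 56.9 and 48.5 CPM. At day 7 WT stood at 22.5, 20.3 and 21.0 CPM and cKO at 40.4, 33.4 and 32.6 CPM. Every cKO library lay above every WT library on both days, and on day 5 as well (20.3, 31.1 and 26.3 CPM in WT against 46.6, 42.5 and 41.2 CPM in cKO). On the log2 scale cKO exceeded WT by 0.71 ± 0.15, 0.75 ± 0.15 and 0.74 ± 0.15 on days 3, 5 and 7 (adjusted p = 0.00751, 0.0134 and 0.0233). The day 3 call was lost without WT or cKO replicate 1, the day 5 call without WT replicate 3 or cKO replicate 1, and the day 7 call without WT replicate 2 or cKO replicate 1 or 2.

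The rise in the sets was 0.83 ± 0.09, 0.94 ± 0.09 and 0.70 ± 0.09 on the log2 scale (adjusted p = 3.44e-07, 6.61e-08 and 2.71e-06). It was 1.23 ± 0.34 without antibody (adjusted p = 0.0391) and 1.25 ± 0.34 with the control antibody (adjusted p = 0.04996), both of which were lost when single libraries were left out (5 and 6 of 6). Slc2a3 was not called in peritoneal macrophages, where it was scarce at 1.01 to 5.33 CPM (1.10 ± 0.42, adjusted p = 0.427). It was not called with the IFNAR1 antibody (0.98 ± 0.34, adjusted p = 0.264) or at day 8 untreated (0.49 ± 0.33) either. Slc2a3 is also expressed in neutrophils. The sum of 8 neutrophil markers at day 3 was 1583 to 3038 CPM in WT and 2732 to 4205 CPM in cKO (medians 2200 and 2852 CPM). At day 5 it was 486 to 585 against 504 to 1741 CPM. At day 7 it was 74.1 to 131 against 89.9 to 276 CPM, and the ranges overlapped on each day. It did not overlap in set 1 (59.3 to 110.2 CPM in WT, 196 to 281 in cKO) or set 3 (66.5 to 120.3 CPM in WT, 194 to 319 in cKO). In the antibody experiment it was at most 3.94 CPM in every library. The part of neutrophils in the Slc2a3 values was not tested.

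**Figure D2:**
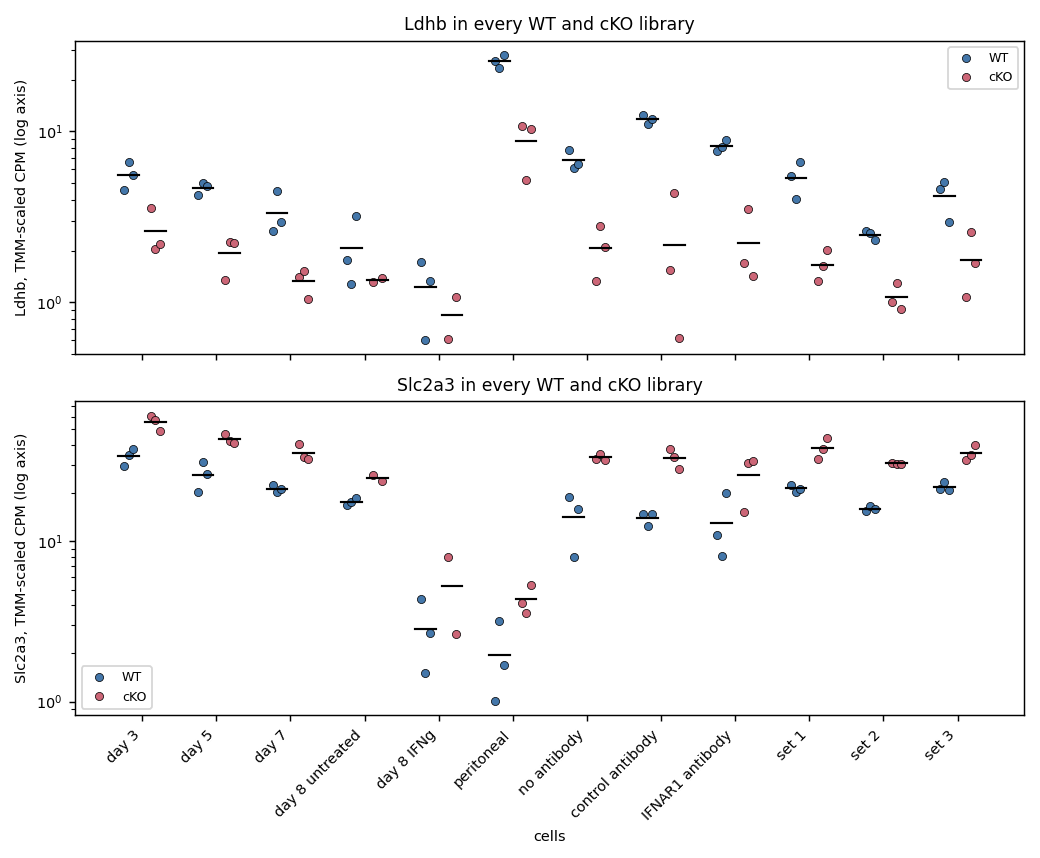
Ldhb and Slc2a3 in CPM on a log axis in every WT and cKO library, by experiment, with a line at each group mean. WT and cKO libraries are apart for both genes on days 3, 5 and 7, in the 3 sets and without or with control antibody, and close or overlapping at day 8.

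Across the days of culture few of the 32 genes were called between cKO and WT. At day 3 3 genes were called, Ndrg1 and Slc2a3 higher and Ldhb lower, which is 9.38% of the 32 beside 7.73% of all 15955 genes tested. At day 5 3 were called, Slc2a3 higher and Ldhb and Aldoc lower, beside 2.83% of all genes. At day 7 3 were called, Slc2a3 higher and Ldhb and Pfkfb4 lower, beside 1.4% of all genes. The median log2 fold change of the 32 genes was -0.20, 0.16 and 0.26 on the 3 days, beside 0.04, 0.01 and 0.01 for all genes tested. WT and cKO libraries did not overlap for 17, 13 and 9 of the 32 on days 3, 5 and 7 (53.1%, 40.6% and 28.1%), beside 34.1%, 26.5% and 16.6% of all genes.

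Ndrg1, a gene induced by hypoxia and during differentiation, had the largest log2 fold change of the 32 genes at day 3. At day 3 WT held 22.6, 22.9 and 26.1 CPM and cKO 65.2, 60.1 and 52.8 CPM, so that all cKO libraries were above all WT libraries (log2 fold change 1.31 ± 0.28, adjusted p = 0.00913). The call held when any 1 library was left out. By day 5 (48.0, 26.8 and 32.3 CPM in cKO) the groups overlapped. Aldoc, the second aldolase, stood at 49.1, 24.97 and 27.7 CPM in WT and 14.9, 18.98 and 15.4 CPM in cKO at day 5 (-1.04 ± 0.26, adjusted p = 0.0429). Pfkfb4, a PFK-2 isoform that sets the rate of phosphofructokinase, stood at 45.5, 63.0 and 41.4 CPM in WT and 23.5, 31.9 and 30.5 CPM in cKO at day 7 (-0.80 ± 0.18, adjusted p = 0.0363). Neither pair of groups overlapped, but the Aldoc call was lost in 6 of 6 fits with 1 library left out and the Pfkfb4 call in 4 of 6.

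The core of the pathway was not called. Slc2a1, the main glucose transporter of the cells, gave log2 fold changes of -0.40 ± 0.32, 0.19 ± 0.32 and 0.83 ± 0.32 on days 3, 5 and 7 (adjusted p = 0.517, 0.847 and 0.213). Ldha, which turns pyruvate into lactate, gave -0.39 ± 0.37, 0.18 ± 0.37 and 0.12 ± 0.37 (adjusted p = 0.583, 0.874 and 0.909). Hif1a gave 0.03 ± 0.16, 0.14 ± 0.16 and 0.28 ± 0.16, and Vegfa, the vascular growth factor, 0.67 ± 0.24, 0.29 ± 0.24 and -0.22 ± 0.24, none called. The change of the cKO effect from day 3 to day 7 was tested as an interaction, and edgeR called 0 of the 32 genes (4 at an unadjusted p under 0.05, 1 by DESeq2), beside 0.0439% of all genes.

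In the time course 2 libraries stood apart. The cKO day 5 replicate 1 had an interferon marker sum of 2315.5 CPM, against 297 and 363 CPM in replicates 2 and 3, and a neutrophil sum of 1741 CPM, against 587 and 504 CPM, and without it edgeR called 0 of the 32 genes at day 5. WT day 7 replicate 2 held 24.6 CPM of Slc2a1, 657 CPM of Pkm and 242 CPM of Ldha, against 96.2 and 69.8, 2822 and 1339, and 1201 and 528 CPM in replicates 1 and 3. Its sum of 6 proliferation genes was also low, at 607 CPM against 1589 and 2035 CPM. Without it edgeR called 0 of the 32 genes at day 7, and without WT day 7 replicate 1 it called 6.

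From day 3 to day 5 of WT culture 1 of the 32 genes passed the test, Gpi1, which converts glucose phosphate to fructose phosphate and went from 773, 625 and 678 CPM to 368, 407 and 437 CPM (log2 fold change -0.78 ± 0.19, adjusted p = 0.044). All 3 day 5 libraries were below all day 3 libraries. Of the 32 genes 19 were lower in every day 5 library than in every day 3 library, beside 17.9% of all genes, and 18 had an unadjusted p under 0.05, while 2.64% of all genes were called. The neutrophil sum was lower after the same step, at 486 to 585 CPM against 1583 to 3038 CPM, and its part was not tested. The Gpi1 call was lost in each of the 6 fits with 1 library left out. In cKO cells edgeR called 0 of the 32 from day 3 to day 5 (8 at an unadjusted p under 0.05, 1 by DESeq2), beside 3.59% of all genes. From day 5 to day 7 it called 0 in WT (5 unadjusted, 2 by DESeq2) and 0 in cKO (1 unadjusted, 0 by DESeq2), beside 0.238% and 0.0564% of all genes.

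**Figure D3:**
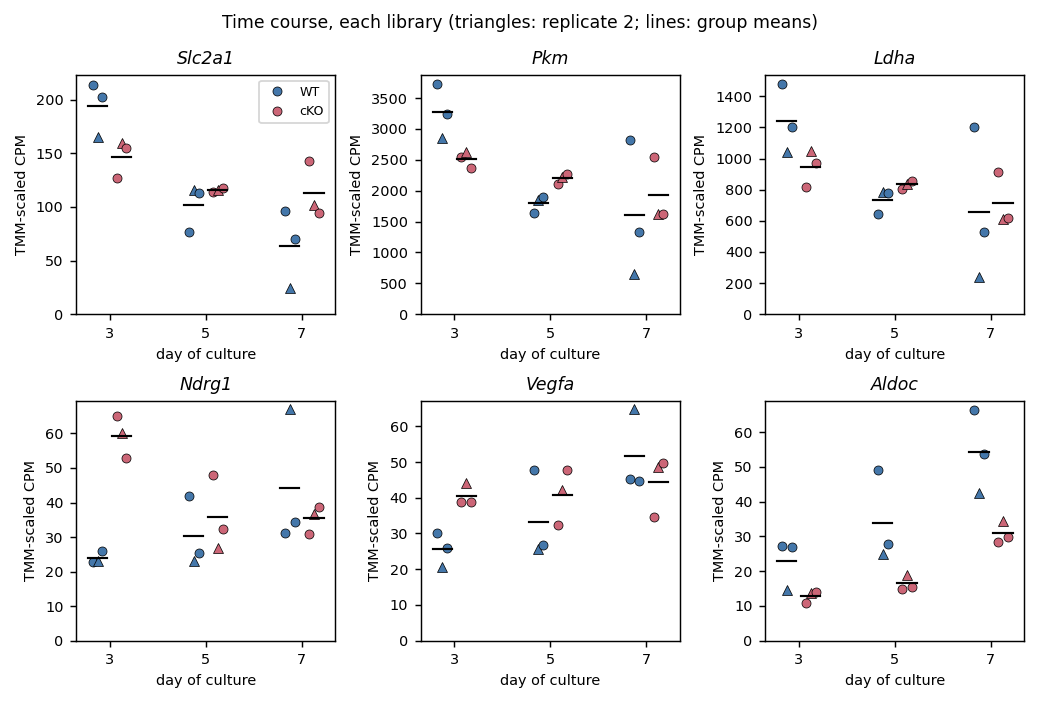
Slc2a1, Pkm, Ldha, Ndrg1, Vegfa and Aldoc in CPM in every WT and cKO library of days 3, 5 and 7, with lines through the group means and triangles for replicate 2. Ndrg1 is higher in all 3 cKO libraries at day 3, and the lowest triangles at day 7 for Slc2a1, Pkm and Ldha are the WT library at 24.6, 657 and 242 CPM.

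Of the further genes of the 2 pathways, 19 other glycolysis genes were tested in the time course and 0 were called by edgeR in cKO against WT on any day. Of all genes tested 7.73%, 2.83% and 1.4% were called on days 3, 5 and 7. Of 27 other hypoxia response genes 3, 1 and 1 were called higher on these days and 0 lower. They were led at day 3 by Ddit4, a stress-induced inhibitor of mTOR (log2 fold change 1.65, 14.7 against 4.65 CPM).

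At day 8 more of these genes were called for IFNγ than for the loss of H3.3. In WT day 8 macrophages IFNγ raised 10 of the 32 genes and lowered 5, which is 46.9% of them beside 40.1% of all 13075 genes tested, and in cKO macrophages it raised 9 and lowered 5, beside 33.6% of all genes. Of these, 8 rose in both genotypes (Slc2a1, Hk1, Hk3, Pfkp, Pfkfb3, Pkm, Hif1a, Vegfa) and 4 fell in both (Slc2a3, Aldoc, Slc16a1, Ndrg1). The share of all genes called in both genotypes was not counted, so this overlap cannot be read as particular to these genes. The medians over the 32 genes were 0.08 in WT and 0.00 in cKO, since the rises and falls offset each other.

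Hk3, a hexokinase of myeloid cells, gave the largest rise of the 32. It stood at 235, 234 and 236 CPM in untreated WT libraries and 1679, 2056 and 1929 CPM with IFNγ, without overlap (log2 fold change 3.01 ± 0.26, adjusted p = 1.42e-05). In cKO cells it went from 262 and 289.6 CPM to 4350.5 and 2007 CPM (3.52 ± 0.33, adjusted p = 4.18e-05). The higher of these last values is replicate 1, the shallow library.

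Pfkp, the platelet type phosphofructokinase, rose from 79.3, 77.4 and 77.8 CPM to 291, 390.5 and 327 CPM in WT (2.10 ± 0.14, adjusted p = 3.03e-06) and from 94.6 and 98.4 CPM to 320.2 and 337 CPM in cKO (1.77 ± 0.17). Pfkfb3, the inducible PFK-2 isoform, rose from 24.1, 20.5 and 20.5 CPM to 86.6, 63.3 and 61.6 CPM in WT (1.70 ± 0.17). In cKO it went from 33.9 and 32.2 CPM to 128 and 155 CPM (2.11 ± 0.20, adjusted p = 5.38e-05). All libraries with IFNγ were above all untreated libraries for both genes. Hk1 rose by 1.19 in WT and 1.41 in cKO, Slc2a1 by 0.98 and 0.56, and Pkm by 0.71 and 0.66 on the log2 scale. In WT alone the lactate exporter Slc16a3 (0.67) and Gapdh (0.38) were also called, and in cKO alone Pfkm (0.60) higher and Gpi1 (-0.70) lower. The differences between genotypes were not called.

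Among the oxygen response genes Hif1a rose in WT from 90.5, 86.5 and 83.3 CPM to 294, 345 and 297 CPM (1.85 ± 0.31, adjusted p = 0.000966). In cKO it went from 86.0 and 91.8 CPM to 112 CPM in replicate 1 and 336 CPM in replicate 2 (1.35 ± 0.37, adjusted p = 0.0186), so the shallow library was nearer to the untreated ones. Vegfa went from 25.7, 35.6 and 31.4 CPM to 75.0, 89.8 and 78.8 CPM in WT (1.39 ± 0.15) and from 33.0 and 40.3 CPM to 121 and 122 CPM in cKO (1.73 ± 0.19). Egln3, in contrast, was at 1.999, 1.51 and 2.30 CPM untreated and at 0, 0.301 and 0.488 CPM with IFNγ in WT (-2.88 ± 0.69, adjusted p = 0.00788), from 14 to 26 reads a library down to 0 to 4. It was not called in cKO (-1.97 ± 1.12), and these 3 genes are described under IFNγ because their values had been seen.

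The genes that fell were Slc2a3, Ndrg1, Slc16a1 and Aldoc. Slc2a3 fell by 2.59 in WT, from 16.8, 17.6 and 18.6 CPM to 4.34, 1.51 and 2.68 CPM, and by 2.62 in cKO on the log2 scale (adjusted p = 0.000268 and 0.0021). Ndrg1 fell by 1.78 in WT and 1.75 in cKO. Slc16a1, a lactate and pyruvate transporter, went from 27.3, 27.8 and 31.3 CPM to 12.0, 14.5 and 12.6 CPM in WT (-1.15 ± 0.15) and from 22.7 and 23.4 CPM to 9.17 and 6.91 CPM in cKO (-1.59 ± 0.21). Both glucose transporters were therefore called, in opposite directions, in both genotypes.

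**Figure D4:**
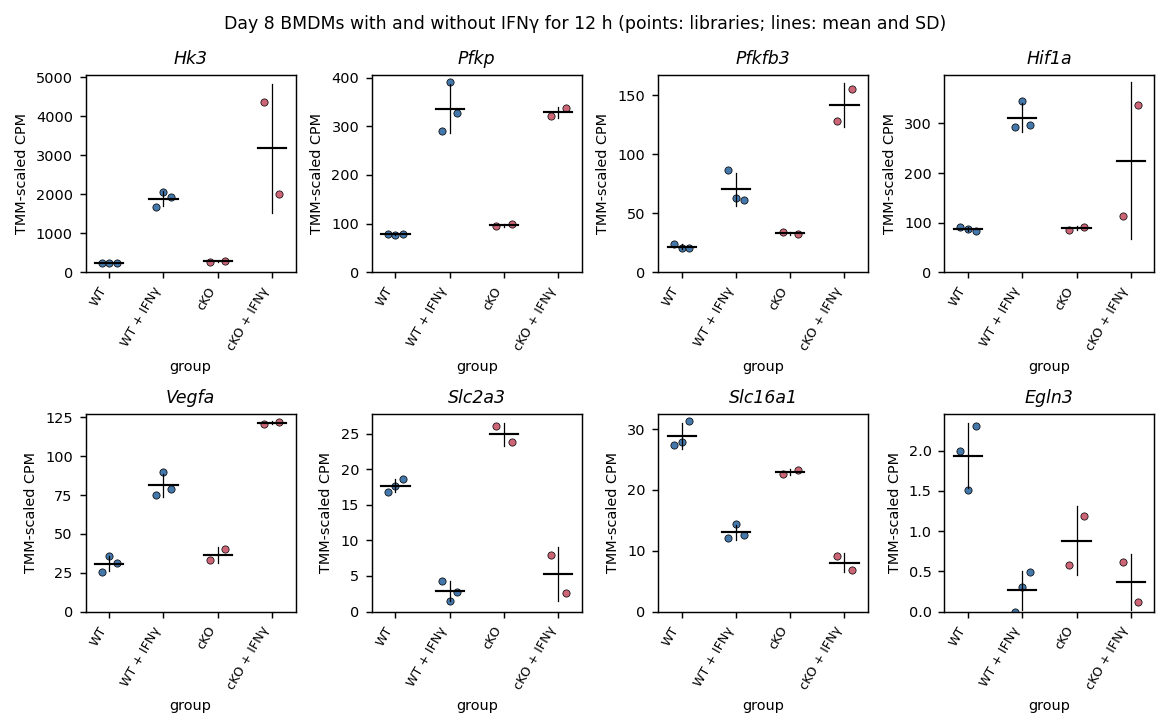
CPM of Hk3, Pfkp, Pfkfb3, Hif1a, Vegfa, Slc2a3, Slc16a1 and Egln3 in every assigned day 8 library, untreated and with IFNγ, WT and cKO, with group mean and SD. The IFNγ libraries lie above the untreated ones for Hk3, Pfkp, Pfkfb3 and Vegfa and below them for Slc2a3 and Slc16a1, and the cKO IFNγ libraries of Hif1a are at 112 and 336 CPM.

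These calls rest on the labels of the libraries used. In 2 further day 8 cKO libraries the title and the library name give opposite treatments, so they stayed in no group. With both placed by their titles edgeR called 0 of the 32 genes for IFNγ in WT and 0 in cKO. With both placed by their library names it called 16 and 15.

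Between the genotypes at day 8, edgeR called 0 of the 32 genes untreated (5 at an unadjusted p under 0.05, 1 by DESeq2), beside 0.612% of all genes. Slc2a1 (0.26 ± 0.17), Ldha (-0.07 ± 0.16), Hif1a (0.03 ± 0.33) and Vegfa (0.25 ± 0.17) had an adjusted p of 1. With IFNγ 2 genes were called, Pfkfb3 higher (1.01 ± 0.18, adjusted p = 0.0152) and Aldoc lower (-0.87 ± 0.17, adjusted p = 0.0232), beside 4.83% of all genes. Vegfa (0.58 ± 0.17, adjusted p = 0.0764), Ldha (-0.39 ± 0.16), Slc2a1 (-0.16 ± 0.18) and Hif1a (-0.46 ± 0.34) were not. With the replicate block or with the conflicting libraries placed by title it called 0, with these placed by library name 6, and with DESeq2 8 were called. Without the shallow cKO replicate 1 edgeR called 6, without cKO replicate 2 it called 11, and without WT replicate 1, 2 or 3 it called 1, 0 and 0. Leaving out a cKO library left 1, which was assumed to vary like the other groups. The interaction of genotype and IFNγ called 0 of the 32 by edgeR (2 at an unadjusted p under 0.05, 0 by DESeq2), beside 0% of all genes.

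Of the other pathway genes, 8 of 20 glycolysis genes rose and 2 fell with IFNγ in WT, and 4 rose and 3 fell in cKO. Slc2a6, a lysosomal hexose transporter of the same family as Slc2a1, led them with log2 fold changes of 3.28 in WT (67.1 to 651 CPM) and 3.34 in cKO (86.9 to 880 CPM). Of 24 other hypoxia response genes 4 rose and 8 fell in WT, and 4 rose and 7 fell in cKO. These counts stand beside 40.1% and 33.6% of all genes called in WT and cKO. Epas1, which makes HIF-2 alpha, fell in both (-3.14 in WT, 20.8 to 2.36 CPM, and -3.55 in cKO).

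In peritoneal macrophages edgeR called 1 of the 30 genes tested, Ldhb, beside 0.971% of all 12361 genes. Eno2 and Vegfa were too low to be tested. Slc2a1 stood at 7.31, 18.2 and 14.9 CPM in WT and 18.7, 14.1 and 23.4 CPM in cKO (log2 fold change 0.46 ± 0.33), Ldha at 1223, 1353 and 962 CPM and 946, 1288 and 1308 CPM (0.00 ± 0.19), and Hif1a at 77.4, 108 and 99.4 CPM and 78.2, 90.9 and 91.4 CPM (-0.13 ± 0.17). The WT and cKO libraries of all 3 genes overlapped. None of 20 other glycolysis or 22 other hypoxia response genes was called by edgeR.

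In the antibody experiment Hif1a and Vegfa were lower in cKO cells cultured without antibody. The WT mean of Vegfa in these cultures was 1094 CPM, against 51.7 CPM in WT day 7 BMDM. Vegfa stood at 639, 1537 and 1106 CPM in WT and 431, 415 and 425 CPM in cKO (log2 fold change -1.37 ± 0.27, adjusted p = 0.00855). Hif1a stood at 218, 370.2 and 207 CPM in WT and 139.7, 147 and 145 CPM in cKO (-0.88 ± 0.23, adjusted p = 0.0335). No cKO library reached a WT library in either gene, and the cKO libraries were far closer to each other than the WT libraries. With Slc2a3 and Ldhb these were the 4 genes called of the 32, beside 7.1% of all 17191 genes. Without WT replicate 2, the highest in both genes, edgeR called 0 of the 32, the Vegfa adjusted p then being 0.0538, and without WT replicate 1 it called 8. Among the 4 further HIF targets the log2 fold changes ran from -1.37 to -0.44. Those of Pdk1 (0.70) and Egln1 (0.62) were above 0 and not called. Slc2a1 (-0.02) and Ldha (0.51) were not called either.

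With the control antibody 5 were called, beside 4.45% of all genes. Hk3 was higher in cKO, at 252, 229 and 302 CPM against 141, 137 and 146 CPM (0.89 ± 0.22, adjusted p = 0.0313), as was Pfkfb3, at 155, 176 and 202 CPM against 102, 103 and 121 CPM (0.71 ± 0.19, adjusted p = 0.043), and Slc2a3. Pfkfb4 was lower, at 23.8, 23.7 and 21.6 CPM against 34.4, 34.5 and 37.2 CPM (-0.62 ± 0.15, adjusted p = 0.0257), as was Ldhb. The groups did not overlap for any of the 5, which was so for 22 of the 32 genes and 36.7% of all genes. Only the Ldhb call outlived the removal of any 1 library. Hif1a (-0.31 ± 0.23), Vegfa (-0.61 ± 0.27), Slc2a1 (-0.46 ± 0.31) and Ldha (-0.07 ± 0.26) were not called.

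With the IFNAR1 antibody edgeR called 0 of the 32 genes (5 at an unadjusted p under 0.05, 2 by DESeq2), beside 0.675% of all genes. WT replicates 1 and 2 and cKO replicate 1 stood apart in these groups. Slc16a3, the main lactate exporter of glycolytic cells, was at 28.5, 15.4 and 144 CPM in WT and 27.4, 132 and 140 CPM in cKO, and Slc2a1 at 86.0, 88.8 and 189.5 CPM and 68.7, 161 and 170.2 CPM. Ndrg1 ran the other way, at 117, 217 and 48.8 CPM in WT and 148, 61.3 and 66.3 CPM in cKO. The proliferation sum of the same libraries was 1899 and 2175 CPM in WT replicates 1 and 2 against 845 CPM in replicate 3, and 1190.4 CPM in cKO replicate 1 against 750 and 493 CPM. Without WT replicate 3 edgeR called 5 of the 32 genes.

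IFNAR1 antibody against control antibody gave 5 genes higher and 1 lower in WT, beside 9.89% of all genes, and 1 higher in cKO, beside 4.03%. In WT these were Eno2 (2.08 ± 0.62), Ndrg1 (1.55 ± 0.43), Pfkm (1.0035 ± 0.25), Hif1a (0.94 ± 0.23) and Hk1 (0.42 ± 0.12) higher and Pgam1 (-0.53 ± 0.14) lower, with adjusted p between 0.0221 and 0.0462. In cKO it was Vegfa, at 892, 515 and 575 CPM against 275, 309.9 and 277 CPM (1.202 ± 0.27, adjusted p = 0.0254). The WT count was 0 without any 1 of 5 of the libraries and 18 without WT IFNAR1 replicate 3, and the cKO count was 0 without any 1 of 4. The proliferation sum in WT was 162 to 401 CPM with the control antibody, 845 to 2175 CPM with the IFNAR1 antibody and 916 to 1046 CPM without antibody. In cKO it was 135 to 261, 493 to 1190 and 547 to 868 CPM in the same order. The control antibody cultures were thus the low ones in both genotypes. The part of this sum in these differences was not tested.

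Of the other pathway genes Epas1 was higher in cKO with each treatment, by 1.69 without antibody (102 against 31.5 CPM), 2.32 with the control antibody and 1.25 with the IFNAR1 antibody on the log2 scale. Ddit4 was lower without antibody (-2.12, 29.8 against 130 CPM) and with the control antibody (-1.30), the reverse of its direction at day 3 of the time course. In all, 1 of 25 other hypoxia response genes rose and 3 fell without antibody, and 2 of 20 other glycolysis genes fell, beside 7.1% of all genes called.

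In the 3 sets, the experiment with the highest median depth (31118816 counts a library), more of the 32 genes were called than in each other comparison of cKO with WT. In set 1 5 of the 32 genes rose and 18 fell in cKO cells, 71.9% of them beside 34.7% of all 18083 genes tested. In set 2 2 rose and 19 fell, 65.6% beside 21% of all genes, and in set 3 5 rose and 15 fell, 62.5% beside 34.9%. Lower calls made up 16.7%, 11.3% and 18% of all genes against 56.2%, 59.4% and 46.9% of the 32. The medians of the 32 were -0.31, -0.41 and -0.27 on the log2 scale, and those of all genes -0.03, -0.01 and -0.05.

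Of the 32 genes 11 were called lower in all 3 sets: Gpi1, Pfkfb4, Aldoa, Pgk1, Pgam1, Ldhb, Slc16a3, Pdk1, Egln3, Bnip3 and Ankrd37. The share of all genes called lower in all 3 was not counted, and in single sets it was 16.7%, 11.3% and 18%. Slc2a3 alone rose in all 3. The libraries of sets 1 and 3 were closer to each other than to those of set 2: a chi-square per degree of freedom between their libraries was 14.4 to 88.5 in WT and 13.3 to 33.2 in cKO, against at least 122 in WT and 54.8 in cKO for pairs with set 2, and 4.18 to 76.9 between libraries of 1 group. The cKO effects of sets 1 and 3 differed by edgeR in 0 of 18083 genes (279 at an unadjusted p under 0.05, 0 of them among the 32), beside 0% of all genes. The labels do not say whether sets 1 and 3 came from separate cultures. A call shared by these sets may therefore not be an independent repeat.

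Egln3, the hydroxylase that HIF itself induces, fell furthest in sets 1 and 3. Set 1 had 31.9, 10.8 and 24.9 CPM in WT and 5.01, 5.19 and 5.46 CPM in cKO (log2 fold change -2.10 ± 0.27, adjusted p = 2.08e-06). Set 2 had 7.30, 7.56 and 8.59 CPM and 4.05, 3.78 and 3.13 CPM (-1.09 ± 0.27, adjusted p = 0.00492), and set 3 had 30.0, 31.6 and 26.4 CPM and 4.86, 6.38 and 4.29 CPM (-2.51 ± 0.27, adjusted p = 1.68e-07). No cKO library reached a WT library of its set, and the WT level of set 2 was nearer to the cKO level than that of the others.

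Ankrd37, a small ankyrin repeat gene known as a HIF target, and Bnip3, which marks mitochondria for autophagy, fell in every set. Ankrd37 stood at 8.02, 3.35 and 7.69 CPM in WT and 2.59, 2.29 and 1.75 CPM in cKO of set 1, and fell by 1.51, 1.36 and 1.88 in sets 1, 2 and 3. Bnip3 stood at 35.8, 19.6 and 30.7 CPM in WT and 14.1, 15.6 and 15.04 CPM in cKO of set 1, and fell by 0.94, 0.61 and 1.15. The groups of each set were apart in both genes. Of the exonic bases of Ankrd37 26.4% overlap Ufsp2 or Lrp2bp and of those of Bnip3 22.3% overlap Gm45507, and 47.2% of the 50-base windows of Bnip3 are found in other genes, so both levels are less certain than their spread shows. Both, like Egln3 and Pdk1, were singled out for all sets after their values were seen.

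Pdk1, the kinase that closes the entry of pyruvate into the citrate cycle, changed less but with the smallest error. WT libraries held 168, 140.1 and 166 CPM in set 1, 184, 184 and 189 CPM in set 2 and 150.2, 165 and 173 CPM in set 3. The cKO libraries held 97.6, 94.1 and 102 CPM, 111, 113 and 106 CPM, and 95.5, 93.4 and 95.9 CPM. All 9 cKO libraries lay below all 9 WT libraries, with changes of -0.69 ± 0.08, -0.76 ± 0.08 and -0.78 ± 0.08 on the log2 scale (adjusted p = 2e-07, 6.61e-08 and 3.23e-08).

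Vegfa, the best known HIF target, was called in sets 1 and 3 and not in set 2. Set 1 had 160.3, 62.1 and 92.3 CPM in WT and 57.7, 43.9 and 42.7 CPM in cKO (-1.12 ± 0.31, adjusted p = 0.00676), and the call was lost without WT replicate 1 (adjusted p = 0.0904). Set 3 had 212, 79.4 and 81.0 CPM against 50.2, 46.4 and 34.4 CPM (-1.51 ± 0.31, adjusted p = 0.000514), and set 2 had 63.0, 61.4 and 69.3 CPM against 41.7, 30.5 and 45.1 CPM (-0.72 ± 0.31, adjusted p = 0.105). The groups did not overlap in any set. The glycolytic enzymes fell by less: in all 3 sets Pgk1 (53.9% of its 50-base windows are in other genes) by 0.62, 0.62 and 0.69, Aldoa by 0.34, 0.45 and 0.34 and Gpi1 by 0.28, 0.32 and 0.28. Ldha was called in set 2 alone (-0.33 ± 0.13, -0.46 ± 0.13 and -0.26 ± 0.13). Hk2 was called higher in sets 1 and 3. In set 2 Hk1 was called higher and Eno2 lower (-1.22).

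A group of genes behaved differently in set 2. Hif1a rose in set 1, from 88.7, 81.5 and 55.8 CPM to 108, 115 and 108 CPM (0.55 ± 0.12, adjusted p = 0.000836), and in set 3 (0.38 ± 0.12, adjusted p = 0.014), but fell in set 2, from 118, 127 and 127 CPM to 102, 101 and 91.9 CPM (-0.33 ± 0.12, adjusted p = 0.0443). The fall was lost when any 1 of the 6 libraries of set 2 was left out. Slc2a1 stood at 172, 188 and 195 CPM in WT and 94.0, 90.4 and 91.3 CPM in cKO of set 2 (-1.01 ± 0.12, adjusted p = 1.4e-06), and was not called in set 1 (0.11 ± 0.12) or set 3 (0.13 ± 0.12), where WT already stood at 58.9 to 101 CPM. Over the 3 sets its level ran from 72.8 to 94.0 CPM in cKO and from 58.9 to 195 CPM in WT.

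Aldoc and Slc16a1 were called in sets 1 and 3 and not in set 2. Aldoc stood at 71.3, 67.3 and 101 CPM in WT and 23.2, 22.9 and 26.3 CPM in cKO of set 1 (-1.73 ± 0.20) and at 27.3, 17.2 and 21.9 CPM and 19.4, 23.5 and 17.4 CPM in set 2. Slc16a1 stood at 15.1, 16.9 and 9.95 CPM in WT and 28.0, 29.0 and 27.9 CPM in cKO of set 1 (1.01 ± 0.18, adjusted p = 0.0001) and at 34.0, 35.9 and 38.7 CPM and 35.6, 34.5 and 36.6 CPM in set 2. Over the 3 sets Slc16a1 ran from 25.1 to 36.6 CPM in cKO and from 9.34 to 38.7 CPM in WT, and Aldoc from 17.4 to 26.3 CPM in cKO and from 17.2 to 101 CPM in WT. The difference of the cKO effect between set 1 and set 2, a contrast chosen after these values were seen, was 1.12 ± 0.17 for Slc2a1, 0.88 ± 0.17 for Hif1a, 1.04 ± 0.25 for Slc16a1 and -1.59 ± 0.27 for Aldoc. These were among 8 of the 32 genes called in that contrast, a share near the 20% of all genes.

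The neutrophil marker sum, higher in every cKO than in every WT library of sets 1 and 3, overlapped in set 2 (151 to 169 CPM in cKO, 101 to 176 in WT). The sum of 5 B cell markers was lower in cKO than in WT in set 1 (42.7 to 59.3 against 109.6 to 188 CPM) and set 3 (37.6 to 58.8 against 95.05 to 192 CPM) and higher in set 2 (31.98 to 39.2 against 19.3 to 26.4 CPM). The part of either in the differences was not tested.

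**Figure D5:**
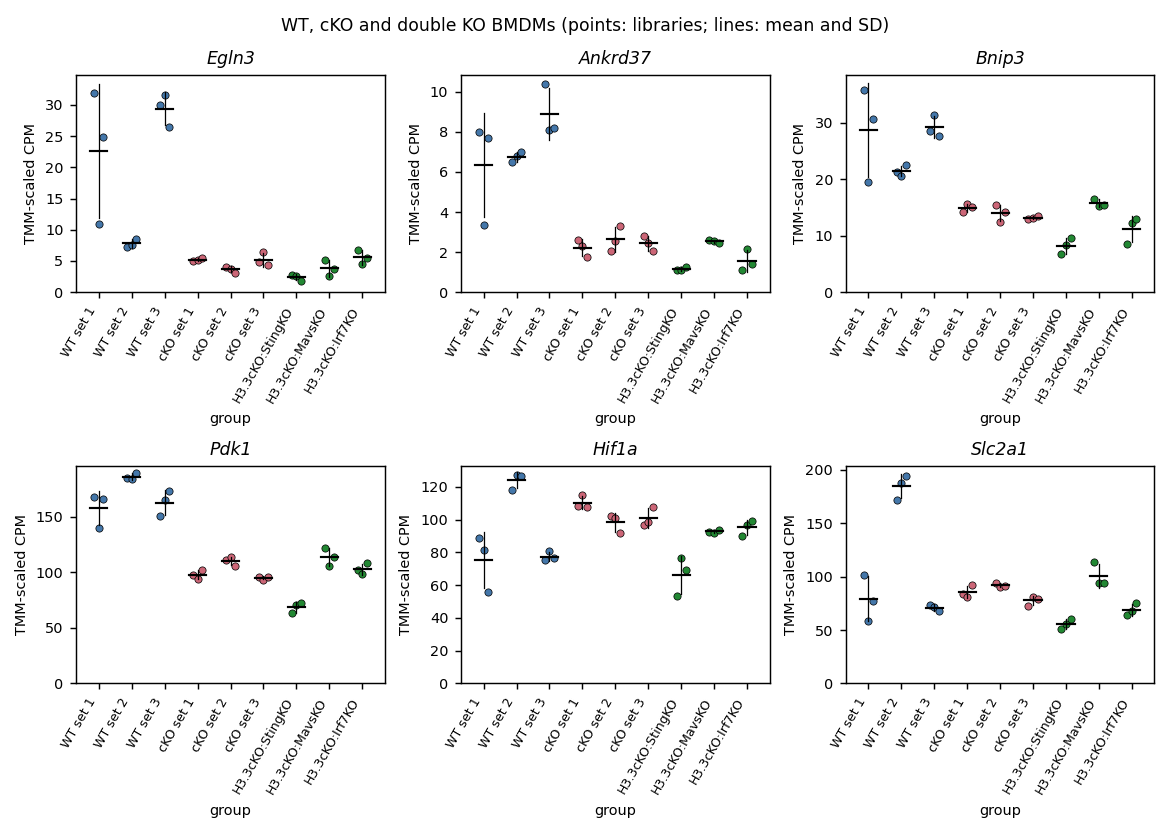
CPM of Egln3, Ankrd37, Bnip3, Pdk1, Hif1a and Slc2a1 in every library of the 3 sets and the 3 double KOs, with group mean and SD. Egln3, Ankrd37, Bnip3 and Pdk1 are lower in cKO than in WT in each set and lower in the 3 H3.3cKO:StingKO libraries than in all 9 cKO libraries, and Slc2a1 is apart in set 2 only.

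Of the other pathway genes 27 of hypoxia response were tested in the sets, of which 6, 2 and 3 rose and 7, 8 and 10 fell in sets 1, 2 and 3. Ak4, a mitochondrial adenylate kinase and HIF target, fell in each (-1.36, -1.60 and -1.59). Of 20 other glycolysis genes 2, 0 and 3 rose and 7, 4 and 6 fell. Beside these counts, 34.7%, 21% and 34.9% of all genes were called in sets 1, 2 and 3. Tigar, a phosphatase that opposes PFK-2, rose in sets 1 and 3 (0.97 and 1.06), and Pdk2 fell (-1.19 and -1.29).

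The double KOs asked whether a sensor or factor of the interferon pathway bears on the cKO state, and each was set against the mean of the 3 cKO sets. In H3.3cKO:StingKO 5 of the 32 genes were higher and 19 lower, 75% of them beside 36.1% of all genes, with lower calls at 59.4% of the 32 beside 17.2% of all genes. The genes that had been low in cKO cells were in part lower still. Pdk1 stood at 63.0, 70.1 and 72.4 CPM, below all 9 cKO libraries (-0.56 ± 0.06, adjusted p = 1.04e-06). Bnip3 stood at 6.77, 8.33 and 9.54 CPM (-0.77 ± 0.14, adjusted p = 0.000171) and Ankrd37 at 1.10, 1.12 and 1.26 CPM (-1.06 ± 0.25, adjusted p = 0.00171), both again below all 9.

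Egln3 stood at 2.73, 2.63 and 1.81 CPM (-0.95 ± 0.26, adjusted p = 0.00575). Transport and lactate genes followed: Slc16a1 was at 13.97, 16.9 and 15.3 CPM (-0.98 ± 0.15), Slc16a3 at 76.1, 79.2 and 78.2 CPM (-0.80 ± 0.13), and Slc2a1 at 50.5, 55.5 and 60.1 CPM (-0.62 ± 0.10), each below all 9 cKO libraries. Hif1a was at 53.6, 76.4 and 69.2 CPM (-0.63 ± 0.10). Slc2a3, which had risen in cKO cells, was not called (0.03). The 5 genes higher were Ldhb, at 2.41, 2.34 and 3.29 CPM (0.87 ± 0.25, adjusted p = 0.00881), Hk3 (0.58 ± 0.10), Ndrg1 (0.51 ± 0.15), Pfkm (0.39 ± 0.09) and Pfkfb4 (0.25).

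With set 3 alone as the reference edgeR called 15 of the 32 genes. Ldhb was then not called, nor with set 1, Ndrg1 not with set 1 and Egln3 not with set 2. The proliferation sum was 1024 to 1144 CPM in H3.3cKO:StingKO against 1248 to 1694 CPM in the cKO sets, and the stromal sum 163 to 201 against 23.6 to 70.0 CPM. The interferon marker sum was 983 to 1251 CPM against 477 to 834 CPM. Irf7, 1 of its genes, was called higher by edgeR (1.08 ± 0.20, adjusted p = 0.00018). The part of these differences was not tested. The effect of the set in which a double KO was cultured cannot be told apart from that of the added allele.

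Of the 32 genes 3 were called in H3.3cKO:MavsKO and 4 in H3.3cKO:Irf7KO. In H3.3cKO:MavsKO Pfkp (0.39 ± 0.09) and Hk1 (0.27 ± 0.06) were higher and Eno2 lower (-0.78 ± 0.16), beside 8.79% of all genes called, and in H3.3cKO:Irf7KO Eno1 (-0.60 ± 0.13), Slc16a1 (-0.46 ± 0.15), Aldoa (-0.34 ± 0.09) and Gpi1 (-0.28 ± 0.08) were lower, beside 9.85%. Egln3 (-0.29 and 0.27), Bnip3 (0.16 and -0.32), Ankrd37 (0.07 and -0.61) and Pdk1 (0.17 and 0.03) were called in neither. These counts depend on the reference set: H3.3cKO:MavsKO gave 0 genes against set 2 and 11 against set 3, and H3.3cKO:Irf7KO 10 against set 2 and 0 against set 3. The H3.3cKO:Irf7KO libraries also held less H3f3a (4.81 against 9.14 CPM) and H3f3b (121 against 200 CPM) than all 9 cKO libraries. Both were called by edgeR (adjusted p = 4.67e-05 and 0.00148), and neither gene was called in H3.3cKO:StingKO or H3.3cKO:MavsKO. The part of this difference was not tested. Of the other pathway genes Slc2a6 was higher in H3.3cKO:StingKO (0.86, 64.3 against 38.4 CPM) and H3.3cKO:Irf7KO (0.69) and lower in H3.3cKO:MavsKO (-1.03), and Ak4 fell further in H3.3cKO:StingKO (-1.86).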

How the data were processed

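RNA was sequenced by the authors after rRNA depletion per the labels (the methods give SMART-Seq v4 for peritoneal cells), reads were trimmed with cutadapt and aligned to mm10 with STAR, and the deposited files hold raw read counts per gene as STAR wrote them. The column without strand was used, so overlapping and antisense genes cannot be told apart. The labels and methods name the groups; 2 day 8 cKO libraries with contradictory labels entered none. The 32 genes and all lists were chosen with earlier results of these data known.

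Each experiment was fitted as one model with all its groups in edgeR 4.0.16 (R 4.3.3, limma 3.58.1): filterByExpr with a minimum count of 10 and total of 15, TMM scaling, prior count 2, quasi-likelihood test, Benjamini-Hochberg adjustment over all genes tested, called at 0.05. The errors of log2 fold changes are the change divided by the square root of F. CPM are TMM-scaled and RPKM divide them by exonic length (GENCODE M21). The steps were tested on simulated counts. Rows that name no gene (unmapped 8.306%, multimapping 8.838%, no feature 13.906%, ambiguous 4.849% of reads, medians over libraries) were left out.

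Named were, in each comparison, the called genes, up to 4 a direction with the largest changes among those averaging 1 or more in log2 CPM, and Hif1a, Slc2a1, Ldha and Vegfa in every comparison of cKO with WT. For the IFNAR1 antibody, where 0 of the 32 were called, the fold changes of these 4 with all libraries are not given. Of the other pathway genes up to 2 a direction were named, and 1 gene is not reported here. Genes added to these after their values were seen are said to be so. Alternatives were DESeq2 1.42.0, RLE scaling, no filter on low counts, a replicate block, leaving out each library, other placements of the conflicting libraries and other reference sets. Libraries with the same replicate number deviated together in every pair (r over 0.1) for cKO against WT on days 3, 5 and 7 (0.131 to 0.489), in peritoneal cells, in sets 1 and 3 and for IFNγ in WT, and not in the other comparisons. No group held libraries that agreed within sampling noise (lowest chi-square per degree of freedom 3.33). RSEM values named in the methods were not used here.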

Additional observations from a re-analysis of the deposited data

Results flagged for a closer look

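Signals outside the comparisons came from the 2 day 8 cKO libraries with contradictory labels. In the library titled untreated, 8 of the 8 genes that IFNγ raised in both genotypes stood above the highest untreated library. Slc2a1 was at 68.2 CPM, Hk1 at 310.0, Hk3 at 1889, Pfkp at 330.3, Pfkfb3 at 138, Pkm at 2537, Hif1a at 321 and Vegfa at 91.8 CPM, where the highest untreated values were 59.0, 110.1, 289.6, 98.4, 33.9, 2074, 91.8 and 40.3 CPM. In the library titled IFNγ 0 of the 8 did. No group was given to either, and the cause was not tested.

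Some effects of the H3.3 loss differed between sets by a test of the difference itself, in contrasts chosen after these values were seen. Set 1 minus set 2 was 1.12 for Slc2a1, 0.69 for Hk2, -0.69 for Pfkm, 0.48 for Pfkp, -1.59 for Aldoc, 1.08 for Eno2, 1.04 for Slc16a1 and 0.88 for Hif1a on the log2 scale. Set 3 minus set 2 was 1.14 for Slc2a1, -0.79 for Pfkm, 0.47 for Pfkp, -1.65 for Aldoc, 1.28 for Eno2, 1.03 for Slc16a1, 0.72 for Hif1a and -1.42 for Egln3. These are 8 of the 32 genes in each contrast, a share near the 20% and 19.5% of all genes.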

How the results depend on the processing

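The number of the 32 genes called kept within 1.5 times in 89 of 120 refits with another setting and in 114 of 174 with 1 library left out. Of the values of single genes 696 of 757 kept their direction and call under other settings, and 832 of 1022 with 1 library left out. At day 8 reads a library were few for Ldhb (1 to 36), Egln3 (0 to 26) and Ankrd37 (0 to 42).

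With DESeq2 the count was 2 for WT day 5 against day 3 and for WT day 7 against day 5, 1 for cKO day 5 against day 3, 1 for the change of the cKO effect from day 3 to day 7, 1 for cKO against WT at day 8 untreated and 8 with IFNγ, 3 in peritoneal cells, 2 with the IFNAR1 antibody and 10 for IFNAR1 against control antibody in WT. With no filter it was 3, 1, 1 and 1 in the first 4 of these, 4 in peritoneal cells, 1 with the IFNAR1 antibody, 5 in H3.3cKO:MavsKO and 7 in H3.3cKO:Irf7KO. With the replicate block it was 3 for WT and 1 for cKO day 5 against day 3, 0 for cKO against WT with IFNγ (r did not pair these libraries) and 1 with the IFNAR1 antibody, and within 1.5 times elsewhere (4, 3 and 3 on days 3, 5 and 7). A crossed block for IFNγ in cKO, chosen after seeing the data, gave 12, as did the block itself. With the conflicting libraries placed by title it was 0 for IFNγ in WT, IFNγ in cKO and cKO against WT with IFNγ, and by library name 6 for the last and 1 untreated. Other reference sets gave 15 in H3.3cKO:StingKO (set 3), 0 and 11 in H3.3cKO:MavsKO and 10 and 0 in H3.3cKO:Irf7KO (sets 2 and 3).

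Leaving out 1 library gave 2 to 3, 0 to 2 and 0 to 6 genes for cKO against WT on days 3, 5 and 7, 0 to 0 for WT day 5 against day 3, 0 to 4 for WT day 7 against day 5, 0 to 2 and 0 to 0 for the same in cKO, and 0 to 1 for the change from day 3 to day 7. It gave 0 to 0 at day 8 untreated, 0 to 11 with IFNγ, 13 to 14 for IFNγ in WT, 9 to 18 in cKO (9 without either untreated cKO library) and 0 to 4 for their difference. It gave 0 to 0 in peritoneal cells, 0 to 8 without antibody, 1 to 2 with control antibody, 0 to 5 with the IFNAR1 antibody, and 0 to 18 in WT and 0 to 1 in cKO between antibodies. It gave 15 to 25, 15 to 18 and 16 to 24 in sets 1, 2 and 3 (15 in set 1 without WT replicate 3), and 19 to 24, 1 to 4 and 0 to 5 in H3.3cKO:StingKO, H3.3cKO:MavsKO and H3.3cKO:Irf7KO. The cause was not tested.

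Values that turned sign were all uncalled. Under other settings they were Hif1a at day 8 untreated (-0.0043, block), Ldhb with IFNγ (0.013, block), Egln3 for IFNγ in cKO (0.066, by title), Ldha in peritoneal cells (-0.0081 with DESeq2 and RLE, -0.00015 with the block), Egln3 (0.043) and Ankrd37 (-0.057) in H3.3cKO:MavsKO and Pdk1 in H3.3cKO:Irf7KO (-0.099), the last 3 against set 2. With 1 library left out they ran from -0.049 to 0.13 for Hif1a at day 3, -0.28 to 0.90 for Ldha at day 7, -0.0086 to 0.066 for Hif1a and -0.17 to 0.0096 for Ldha at day 8 untreated, -1.50 to 0.13 for Hif1a and -0.14 to 1.40 for Slc2a3 with IFNγ (both turn without the shallow cKO replicate 1), -0.15 to 0.14 for Ldha in peritoneal cells, -0.17 to 0.15 for Slc2a1 without antibody, -0.084 to 0.61 for Slc2a1, -0.073 to 0.49 for Ldha and -0.36 to 0.16 for Vegfa with the IFNAR1 antibody, -0.061 to 0.34 for Slc2a1 in set 1 and -0.010 to 0.061 for Pdk1 in H3.3cKO:Irf7KO.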
